A study of Mus musculus with 74 samples.

Results

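The first 3 h of T-cell activation are described here as the change that Th0, Th1, Th2, and Th1/2 cells shared when each was set against the naive T cells of the same experiment. The comparison uses 10 of the 74 arrays of the series: 8 arrays of activated cells, 1 for each of 4 cultures in each of 2 experiments, and 2 arrays of naive cells, 1 for each experiment. They were chosen by sample title and experiment number, with no measured value entering the choice, and the response was sought over all 13817 genes with an expressed probe. All cultures at 3 h had been stimulated with plate-bound anti-CD3 and soluble anti-CD28. Th0 cells received, besides, blocking antibodies against IFN-γ, IL-4, and IL-12. IL-12 and anti-IL-4 were given to Th1 cells, IL-4 with anti-IL-12 and anti-IFN-γ to Th2 cells, and IL-12 together with IL-4 to Th1/2 cells. The naive cells were CD4+ CD62Lhi T cells of Balb/c mice aged 5 to 8 weeks, sorted magnetically in 2 steps from pooled spleens and lymph nodes, and were taken before culture. An unstimulated culture at 3 h is not among the groups, so stimulation and 3 h in culture cannot be told apart.

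Activation of a naive T cell starts at the T-cell receptor, whose complex with CD3 sets off calcium entry, MAP kinases, and protein kinase C, while CD28 adds a second signal. These routes act on the transcription factor families NFAT, AP-1, and NF-κB, which need no new protein synthesis to be switched on. Genes that follow at once are called immediate early genes, and many code for transcription factors themselves. Cytokine genes, surface receptors, and the machinery for ribosome assembly and cell growth come next, before the first cell division. A naive cell also keeps genes of rest, migration, and survival active, several of them under FOXO and KLF factors, and these are shut down on activation.

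Values are given as log2 of the normalized probe intensity, 1 probe for each gene, so levels are compared between arrays and never between genes. A change is the mean of the 4 cultures at 3 h minus naive cells, averaged over both experiments, with the standard error (SE) of the limma model. This SE pools the spread over all time points and is not the spread between both experiments. A gene was called higher or lower where the Benjamini-Hochberg adjusted p over all genes was under 0.05, the mean change was at least 2-fold, and all 8 differences, each culture against the naive array of its experiment, had the same sign. By this rule 4.52% of all genes tested were called higher and 4.86% lower, and counts of list members are to be read against these shares.

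The naive arrays differed from each other more than the activated cells did. Between them, 192 genes differed at least 2-fold, 140 of them higher in naive cells of experiment 2 and 52 higher in naive cells of experiment 1, whereas the means of the 4 cultures at 3 h differed that much between experiments for 29 genes. Array against array, the SD of the differences over all genes was 0.32 between the naive arrays and 0.23 to 0.27 between the arrays of 1 culture at 3 h. All 26 genes that differed at least 4-fold were higher in naive cells of experiment 2. *Tnfaip3*, which encodes the NF-κB inhibitor A20, lay between 12.61 and 13.72 on the 8 arrays at 3 h (median 13.14), against 9.92 in naive cells of experiment 1 and 14.32 in those of experiment 2. *Fosb*, an AP-1 subunit, ranged over 10.49 to 11.30 at 3 h with naive levels of 7.47 and 11.48. In both genes the activated arrays lay above the first naive array and below the second. The same held for *Fos*, with 12.08 to 13.06 at 3 h against 11.14 and 13.87 in naive cells, and for *Junb*, with 12.85 to 13.85 at 3 h against 11.49 and 14.26 in naive cells. At 3 h the arrays of experiment 2 were also all above those of experiment 1 for *Tnfaip3*, at 13.21 to 13.72 against 12.61 to 13.06. The same order was found for *Fos* (12.95 to 13.06 against 12.08 to 12.70) and *Junb* (13.56 to 13.85 against 12.85 to 13.27). For *Fosb* the arrays of both experiments overlapped at 3 h. None of these 4 genes was called, with adjusted p values (limma) between 0.306 and 0.813. *Hspa1a*, a heat shock protein gene of the HSP70 family, ranged over 6.52 to 8.23 at 3 h (median 7.56) against 6.41 and 10.18 in naive cells. Its arrays at 3 h lay at 6.52 to 6.95 in experiment 1 and at 8.17 to 8.23 in experiment 2. *Ppp1r15a*, a stress-induced phosphatase regulator also called GADD34, ranged over 11.33 to 12.42 at 3 h (median 11.93) against 10.76 and 13.79 in naive cells. Neither was called with both naive arrays. The change of *Hspa1a* was 0.35 in experiment 1 and -1.98 in experiment 2. Without the naive array of experiment 1 it was -2.69, with the 3 h arrays of both experiments set against 1 naive array. Of 34 tested chaperone and heat shock genes 3 were called higher and none lower, with 1 higher and 1 lower without the naive array of experiment 1 and 5 higher and 2 lower without that of experiment 2. *Dnajb9*, a chaperone of the endoplasmic reticulum, was the only gene to change at least 2-fold in opposite directions: by 1.45 in experiment 1 and by -1.67 in experiment 2. Of the arrays at later times, which enter the estimate of the spread, 2 stood apart from their group, Th1/2 cells at 12 h in experiment 1 and Th0 cells at 96 h in experiment 2, and without them 623 genes were higher and 673 lower. Counts and calls without 1 of the naive arrays are given below for the groups and genes that they moved most.

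**Figure D1:**
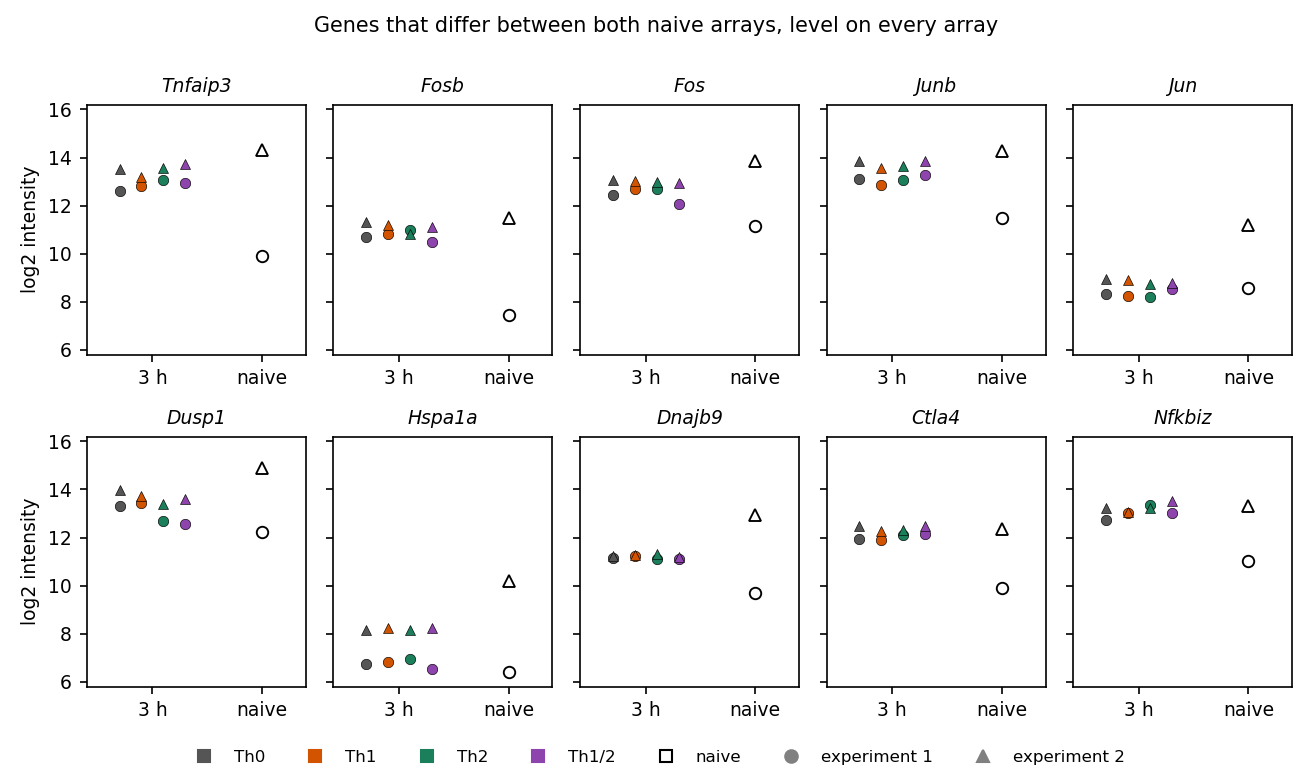
Log2 intensity of 10 genes on each of the 8 arrays at 3 h (filled, 4 cultures left to right) and on both naive arrays (open), circles for experiment 1 and triangles for experiment 2. The naive array of experiment 2 lies far above that of experiment 1, at 14.32 against 9.92 for *Tnfaip3*. The activated arrays lie closer together, but for *Tnfaip3* those of experiment 2 (13.21 to 13.72) are all above those of experiment 1 (12.61 to 13.06).

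Markers of the labelled cell type were present at both times. All 5 measured T-cell markers were detected and none reached the 2-fold limit with both naive arrays, which did not hold without that of experiment 2. All 5 had changes under 0, and for 4 of them the limma adjusted p was under 0.05. Their median change was -0.55, and -0.66 without the naive array of experiment 2. *Cd3e*, a chain of the receptor complex, lay between 13.89 and 14.22 at 3 h and at 14.71 and 14.52 in naive cells. The summed linear intensity of these 5 markers was 50100 to 69440 at 3 h against 97370 and 82660 in naive cells. Of 10 measured markers of monocytes, macrophages, and neutrophils, 3 were called lower, and their summed intensity was 4935 to 6315 at 3 h against 8443 and 11560 in naive cells. B-cell markers summed to 1434 to 2229 at 3 h against 3404 and 2244 in naive cells, with 1 of 6 called lower. Of 4 NK-cell markers 1, *Klrd1*, was called lower. In samples of many cells, fewer cells of a type and less RNA per cell cannot be told apart.

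Within 3 h, 624 genes were called higher in the activated cells and 672 lower, or 4.52% and 4.86% of the genes tested. The median change was 1.38 among the higher genes and -1.26 among the lower genes, while over all genes it was 0.00. Large changes were mostly increases, with 126 genes higher and 40 lower by at least 4-fold, and 39 higher against 1 lower by at least 8-fold. Across genes, the changes in both experiments correlated with r = 0.891 (Spearman's rho 0.793); the genes are not independent replicates. The change was larger in experiment 1 for 1002 of the 1296 called genes. Without the naive array of experiment 1, 640 genes were higher and 707 lower, of which 547 and 566 were among those called with both arrays. Without that of experiment 2, the counts were 690 and 725, with 570 and 586 in common.

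**Figure D2:**
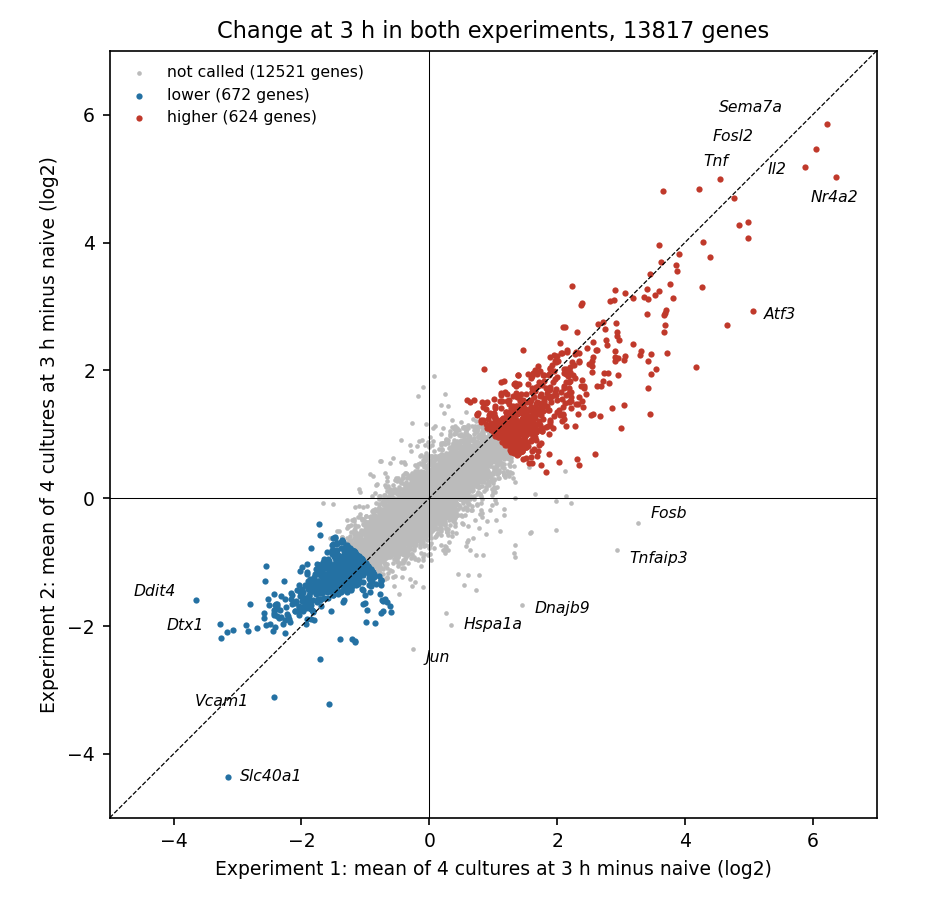
Change of each gene at 3 h against naive cells (log2) in experiment 1 (x axis) and experiment 2 (y axis), each the mean of 4 cultures minus the naive array; red and blue points are the 624 genes called higher and the 672 called lower, and the dashed line marks equal change. Most called genes lie near the line, and *Tnfaip3* and *Fosb* lie far below it, with changes of 2.93 and 3.27 in experiment 1 against -0.81 and -0.38 in experiment 2.

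Transcription factors held many of the largest increases. Of 28 tested immediate early factors, 14 were called higher and none lower, with a median change of 1.35 against 0.00 over all genes. *Fosl2*, an AP-1 subunit of the FOS family, ranged over 13.61 to 13.90 at 3 h (median 13.75) against 7.71 and 8.28 in naive cells. No array at 3 h came near the naive level, and the change was 5.76 ± 0.29 (SE, n = 2 experiments; limma adjusted p = 9.49e-08), or 54.2-fold. *Nr4a2*, an orphan nuclear receptor of the NUR77 family, ranged over 12.64 to 13.26 at 3 h (median 12.93) against 6.70 and 7.76 in naive cells, a change of 5.69 ± 0.30. Its relative *Nr4a3* ranged over 10.90 to 11.65 at 3 h (median 11.17) against 6.997 and 7.106 in naive cells. *Nr4a1*, the best known member of that family, changed less, by 1.41 ± 0.19. The EGR zinc-finger factors rose together: *Egr2* by 4.53 ± 0.42, *Egr3* by 4.23 ± 0.58, *Egr4* by 1.752 ± 0.193, and *Egr1* by 2.09 ± 0.56, and so did *Nab2*, which encodes a corepressor that binds EGR proteins, by 2.397 ± 0.131. *Egr1* was already bright before activation, at 13.25 and 13.77 in naive cells, and reached 15.32 to 15.79 at 3 h; it was not called without the naive array of experiment 1 (adjusted p = 0.0553) or without the 3 h arrays of experiment 1 (adjusted p = 0.0582). *Crem*, a factor of the cAMP response, stood at 11.98 to 12.43 at 3 h (median 12.13) against 7.41 and 7.45 in naive cells. Without the naive array of experiment 1 the list had 12 members called higher and 3 lower, and without that of experiment 2 it had 17 higher and none lower.

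Like *Fos*, *Fosb*, and *Junb*, *Jun* differed strongly between the naive arrays, but its change was negative in both experiments. It lay between 8.21 and 8.93 at 3 h (median 8.65) against 8.59 and 11.21 in naive cells, so that the change was -0.26 in experiment 1 and -2.36 in experiment 2 and was not called (adjusted p = 0.0745). *Atf3*, a CREB-family factor that pairs with JUN proteins, ranged over 10.35 to 12.85 at 3 h (median 11.54) against 6.51 and 8.60 in naive cells. All its activated arrays were above both naive arrays, but they split into a lower group, the Th0 and Th1 arrays at 10.35 to 10.52, and a higher group, the Th2 and Th1/2 arrays at 12.57 to 12.85.

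Among AP-1 partners and early effector factors, 7 of 22 tested genes were higher and none lower, with a median change of 0.49. *Irf4*, a factor that binds together with AP-1 in activated lymphocytes, ranged over 13.06 to 13.79 at 3 h (median 13.48) against 8.59 and 9.03 in naive cells. Its groups were more than 4 log2 units apart, and the change was 4.66 ± 0.18 (adjusted p = 1.63e-08). *Bhlhe40*, a helix-loop-helix repressor, reached 11.25 to 11.86 at 3 h (median 11.77) against 7.40 and 9.68 in naive cells, and its change of 3.12 ± 0.53 was 1.91 without the naive array of experiment 1. *Irf8*, a relative of *Irf4*, changed by 2.47 ± 0.24. Of 11 lineage factors 2 were higher: *Tbx21*, which encodes T-bet, by 3.13 ± 0.12, and *Bcl6*, the repressor that drives the follicular helper fate, by 1.66 ± 0.14. *Gata3*, the Th2 factor, was not called over the 4 cultures together (0.41 ± 0.18, adjusted p = 0.0997). *Myc*, a driver of cell growth, rose to 10.28 to 11.50 at 3 h (median 10.78) against 8.55 and 8.19 in naive cells, by 2.46 ± 0.17 (adjusted p = 8.07e-07).

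**Figure D3:**
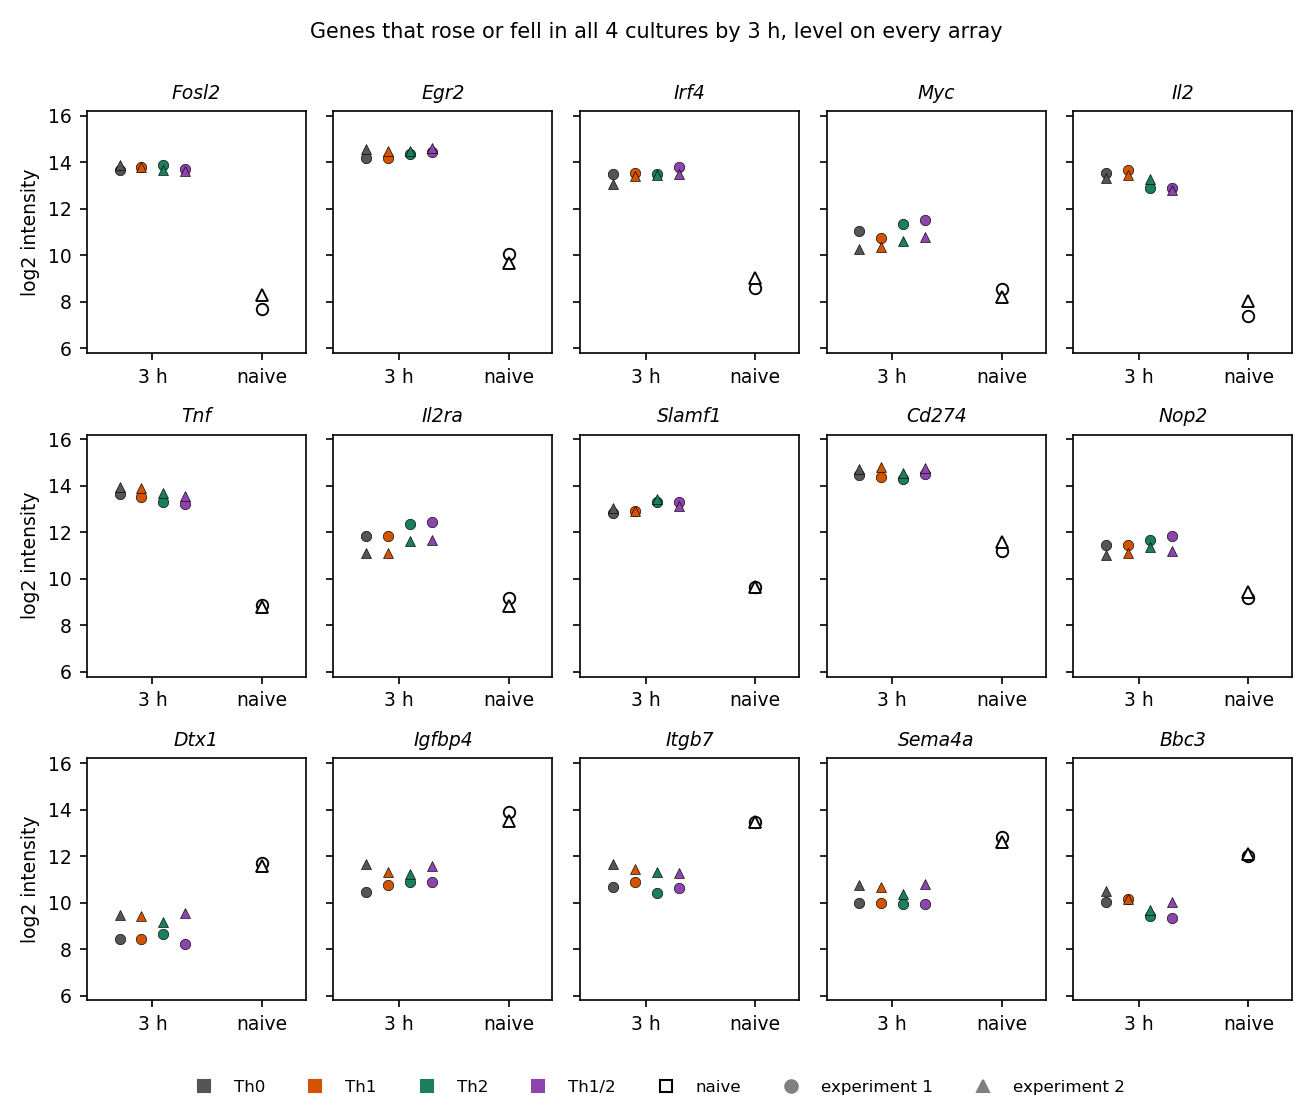
Log2 intensity of 15 genes on every array, at 3 h on the left (filled, coloured by culture) and in naive cells on the right (open), circles for experiment 1 and triangles for experiment 2. For all 15 genes the 8 arrays at 3 h lie entirely above or entirely below both naive arrays, and the 5 genes of the bottom row are lower.

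The bases in front of the start site are shown for 4 genes with large changes, 3 that rose (*Il2*, *Tnf*, and *Gadd45b*) and 1 that fell (*Dapl1*). They were picked as genes that hold motifs searched, so their matches do not stand for other genes with large changes. Each is 250 bases of the GRCm38.p6 assembly from RefSeq, written 5′ to 3′ in the direction of the gene, with the matches in capitals: the NFAT core GGAAA or its reverse complement, the TATA box TATAAA, the E-box CACGTG, and the forkhead motif GTAAACA.
*Il2* (chr3:37125955-37126204, minus strand): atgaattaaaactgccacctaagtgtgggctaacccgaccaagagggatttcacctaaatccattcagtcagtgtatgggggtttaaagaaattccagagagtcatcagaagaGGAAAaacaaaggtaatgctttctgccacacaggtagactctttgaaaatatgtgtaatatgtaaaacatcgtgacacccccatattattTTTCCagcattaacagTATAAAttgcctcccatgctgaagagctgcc
*Tnf* (chr17:35202008-35202257, minus strand): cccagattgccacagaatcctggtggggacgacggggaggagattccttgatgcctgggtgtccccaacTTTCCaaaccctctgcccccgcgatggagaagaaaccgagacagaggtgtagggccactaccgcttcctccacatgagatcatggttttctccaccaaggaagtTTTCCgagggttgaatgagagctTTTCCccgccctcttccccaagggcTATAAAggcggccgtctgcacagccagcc
*Gadd45b* (chr10:80929841-80930090, plus strand): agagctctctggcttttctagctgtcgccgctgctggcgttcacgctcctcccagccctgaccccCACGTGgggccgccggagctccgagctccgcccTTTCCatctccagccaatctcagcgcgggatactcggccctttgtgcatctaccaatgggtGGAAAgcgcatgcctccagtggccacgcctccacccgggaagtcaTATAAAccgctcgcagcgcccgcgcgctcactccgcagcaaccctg
*Dapl1* (chr2:59484403-59484652, plus strand): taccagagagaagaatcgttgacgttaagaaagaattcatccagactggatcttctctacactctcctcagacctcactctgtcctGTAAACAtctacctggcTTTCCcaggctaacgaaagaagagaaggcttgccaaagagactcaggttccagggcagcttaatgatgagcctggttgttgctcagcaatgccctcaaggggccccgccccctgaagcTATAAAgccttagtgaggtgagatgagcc
*Il2* and *Tnf* held 2 and 3 copies of the NFAT core and a TATA box each. *Gadd45b* held 2 NFAT cores, an E-box, and a TATA box, and *Dapl1* held 1 NFAT core, a TATA box, and a forkhead match.

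Matches of the NFAT core are common. Over all 32851 RefSeq windows of 300 bases, from 250 before to 50 after a start site, 61.3% held the NFAT core on at least 1 strand, as did 64.0% of the 631 windows of genes called higher and 59.9% of the 753 windows of genes called lower. Of the windows of all tested genes 59.2% held it. The windows of called genes belong to 506 of the 624 higher and 544 of the 672 lower genes. An E-box was present in 14.6% of the windows of higher genes, 9.96% of those of lower genes, 9.22% of those of all tested genes, and 7.15% of all windows. The CRE motif TGACGTCA stood in 3.49% of the windows of higher genes, in 0.797% of those of lower genes, and in 2.73% of those of tested genes. For the NF-κB motif GGGANTTCC, whose reverse complement can overlap the NFAT core, the shares were 2.85%, 1.33%, and 2.10% in the same order. The AP-1 motif TGANTCA was found in 4.75% of the windows of higher genes and 5.18% of those of lower genes, against 6.00% of those of tested genes. The TATA box stood in 7.13% of the windows of higher genes and 5.31% of those of lower genes, against 9.12% of those of tested genes. For the forkhead motif these shares were 3.01%, 3.05%, and 2.66%. The shares are descriptions, and a match is no evidence of binding.

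Cytokine genes rose early and by large amounts. Of 33 tested cytokines 16 were higher and 2 lower, with a median change of 0.72 (13 higher and 2 lower without the naive array of experiment 1). *Il2*, the growth factor of activated T cells, ranged over 12.80 to 13.69 at 3 h (median 13.30) against 7.37 and 8.04 in naive cells. The arrays of both times lay far apart in both experiments, and the change was 5.53 ± 0.32 (adjusted p = 2.09e-07), or 46.1-fold. *Tnf* ranged over 13.21 to 13.95 at 3 h (median 13.62) against 8.87 and 8.78 in naive cells, a change of 4.78 ± 0.27. *Tnfsf11*, which encodes RANKL, changed by 3.32 ± 0.24 and *Lta*, lymphotoxin alpha, by 2.72 ± 0.45. *Fasl*, a death ligand, and *Cd40lg*, which gives help to B cells, changed by 2.70 ± 0.25 and 1.82 ± 0.16. The signature cytokines of both lineages were already higher at 3 h over the 4 cultures together. *Il4* ranged over 8.85 to 11.48 at 3 h (median 10.26) against 7.01 and 7.87 in naive cells, and its 4 arrays of experiment 2, at 10.99 to 11.48, were all above its 4 arrays of experiment 1, at 8.85 to 9.54. *Ifng* ranged over 8.68 to 11.31 at 3 h (median 10.22) against 6.81 and 8.67 in naive cells, and the lowest array, Th0 cells of experiment 1, was level with the naive array of experiment 2. *Tnfsf14*, the ligand LIGHT, and *Lif*, a cytokine of the IL-6 family, changed by 2.27 ± 0.18 and 2.09 ± 0.27. Both cytokines that fell were *Il16*, a ligand of CD4, by 1.54 on the log2 scale, and *Tnfsf10*, which encodes TRAIL, by 1.08. *Tnfsf10* was under the 2-fold limit without the 3 h arrays of experiment 1 (-0.94) and as the mean of its probes (-0.63).

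Of 10 tested chemokines 3 were higher and none lower. *Ccl4*, a chemokine of the CC family, stood at 10.92 to 12.14 at 3 h (median 11.66) against 6.815 and 9.002 in naive cells. *Xcl1*, which draws cross-presenting dendritic cells, changed by 2.27 ± 0.19. *Ccl3*, at 1.08 ± 0.25, was not called without the naive array of experiment 1 (0.61, adjusted p = 0.0591), without the 3 h arrays of experiment 1 (0.96), without the Th0 cultures (0.99), or without the Th1 cultures (0.99).

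Of 31 tested surface receptors of activated T cells 15 were called higher and none lower, with a median change of 1.09 (17 higher and 1 lower without the naive array of experiment 2). *Slamf1*, a costimulatory receptor of the SLAM family, ranged over 12.83 to 13.45 at 3 h (median 13.09) against 9.64 and 9.64 in naive cells. Both naive arrays gave the same level, and the change was 3.48 ± 0.17 (adjusted p = 9.49e-08). *Il2ra*, the high-affinity chain of the IL-2 receptor, ranged over 11.12 to 12.45 at 3 h (median 11.75) against 9.19 and 8.84 in naive cells, a change of 2.74 ± 0.23. The inhibitory ligand PD-L1, encoded by *Cd274*, stood at 14.29 to 14.80 at 3 h (median 14.53) against 11.21 and 11.57 in naive cells. *Cd83*, an immunoglobulin-family protein of activated lymphocytes, changed by 2.80 ± 0.22. The TNF receptor family was represented by *Tnfrsf4*, or OX40, at 2.70 ± 0.32, and *Tnfrsf9*, or 4-1BB, at 2.44 ± 0.26. *Tfrc*, the transferrin receptor, changed by 2.19 ± 0.26. *Cd69*, a classical early activation antigen, was near the top of the scale at 3 h, at 15.49 to 15.80, against 13.04 and 14.41 in naive cells, and its change of 1.92 ± 0.52 was not called without the naive array of experiment 1 (1.33, adjusted p = 0.125) or without the 3 h arrays of experiment 1 (1.82, adjusted p = 0.0709).

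*Sema7a*, which encodes a membrane-anchored semaphorin, showed the largest increase of all genes tested. It ranged over 12.14 to 13.58 at 3 h (median 12.93) against 6.87 and 6.92 in naive cells, and the change was 6.04 ± 0.18 (adjusted p = 2.55e-09), or 65.7-fold. Others among the 15 largest increases that belong to none of the groups above were *Gfod1* at 4.57 ± 0.17, *Mfsd2a*, a transporter of lysophospholipids, at 4.53 ± 0.31, and *Med14*, a Mediator subunit, at 3.86 ± 0.12.

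Among NF-κB subunits and regulators increases outnumbered decreases. Of 26 tested genes of this list 12 were higher and 1 lower, with a median change of 1.01. *Rel*, the subunit c-Rel, ranged over 10.47 to 11.19 at 3 h (median 10.85) against 7.07 and 8.13 in naive cells. *Relb* changed by 2.50 ± 0.25, and *Rela*, the subunit p65, by 1.05 ± 0.11. *Nfkbid*, a nuclear IκB protein, ranged over 14.60 to 14.93 at 3 h (median 14.75) against 11.73 and 11.60 in naive cells. *Ikbke*, an IκB kinase relative, was the member that fell, by 1.24 on the log2 scale. Without the naive array of experiment 1, 11 members were higher, and without that of experiment 2, 17. *Nfkbia*, which encodes the inhibitor IκBα, and *Tnfaip3* were not called.

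Feedback regulators of kinase signalling rose in 13 of 30 tested genes and fell in 1, with a median change of 0.64. *Gadd45b*, an activator of the p38 pathway upstream kinase MEKK4, ranged over 11.94 to 12.75 at 3 h (median 12.47) against 7.82 and 8.78 in naive cells, a change of 4.08 ± 0.47. *Plk3*, a polo-like kinase of stress responses, had a median of 13.74 and a highest level of 14.12 at 3 h against 9.78 and 11.16 in naive cells, and changed by 3.20 ± 0.42. The MAP kinase phosphatases *Dusp4*, *Dusp5*, and *Dusp16* changed by 2.13 ± 0.35, 2.04 ± 0.44, and 2.12 ± 0.15 (*Dusp5* by 1.34 without the naive array of experiment 1), and *Spred1*, an inhibitor of the RAS pathway, by 2.12 ± 0.12. *Dusp2*, a phosphatase of early T-cell activation, was called (1.46 ± 0.52, adjusted p = 0.0435) but not when either naive array or either set of 3 h arrays was left out, nor without the Th0 cultures or the filter on low values, with adjusted p values of 0.0597 to 0.176. *Dusp7* fell by 1.26 on the log2 scale. Of 27 genes of SOCS proteins, STAT factors, and IL-2 receptor signalling, 5 were higher and none lower. *Cish* and *Socs1*, both inhibitors of cytokine receptor signalling, changed by 2.69 ± 0.13 and 1.96 ± 0.13, and *Stat5a* and *Jak2*, which relay the IL-2 signal, by 1.27 ± 0.15 and 1.29 ± 0.17.

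Genes of the T-cell receptor complex and its nearest signalling partners changed in both directions, 5 higher and 5 lower of 33 tested, with a median of -0.32. Those that rose included the adaptor gene *Lcp2* (SLP-76) at 2.30 ± 0.32, the phosphatase gene *Ptpn22* at 1.97 ± 0.23, the ubiquitin ligase gene *Cblb* at 1.87 ± 0.30, and the adaptor gene *Sh2d2a* at 1.53 ± 0.15. *Ptpn22* and *Cblb* are known to restrain receptor signalling. *Sit1*, a transmembrane adaptor, fell to 8.44 to 9.62 at 3 h (median 9.02), against 11.14 and 10.82 in naive cells. *Themis*, a thymic selection factor that acts at the receptor, fell by 1.66 on the log2 scale.

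**Figure D4:**
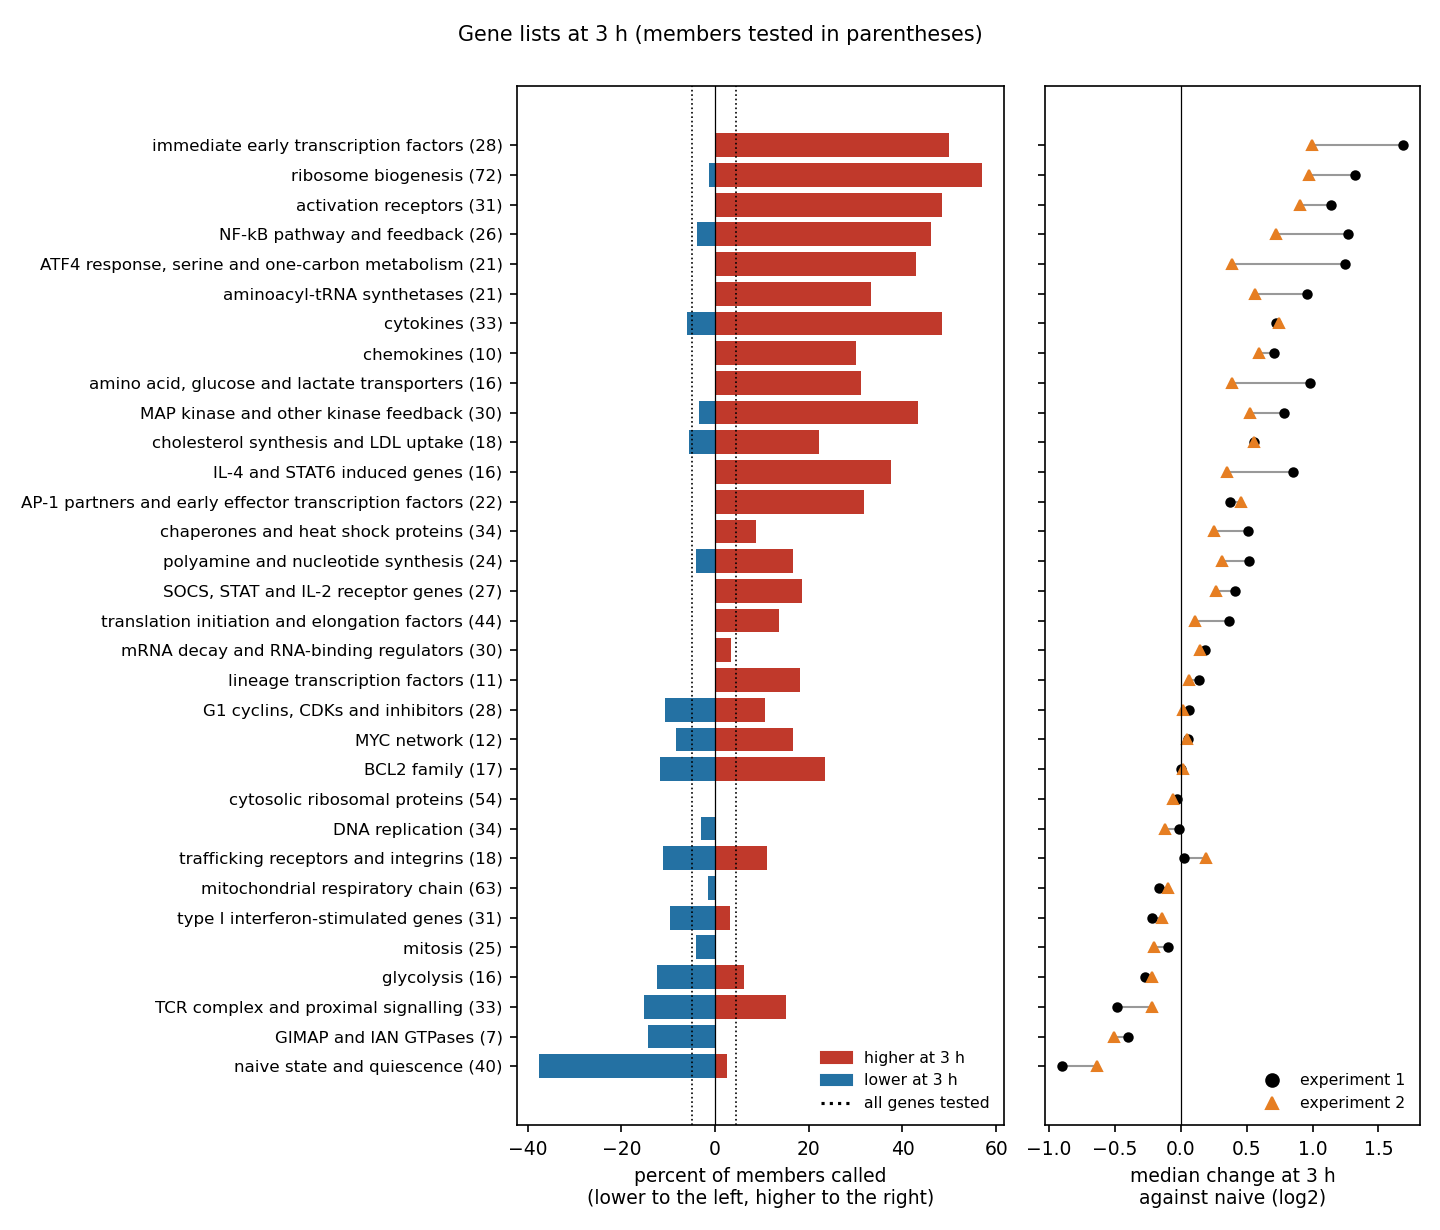
Left, share of the tested members of each gene list called higher (red) or lower (blue) at 3 h, in percent. Right, median change of the tested members (log2) in each experiment, with the lists ordered by the median over both experiments. Ribosome biogenesis (41 of 72 higher), immediate early factors (14 of 28), cytokines (16 of 33), and activation receptors (15 of 31) have large red shares, and naive state and quiescence genes (15 of 40 lower) the largest blue share among the lists of 20 or more genes.

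Ribosome assembly was the largest group to rise. Of 72 tested genes of ribosome biogenesis, 41 were higher and 1 lower, with a median change of 1.17 (1.32 in experiment 1 and 0.97 in experiment 2). *Nop2*, an rRNA methyltransferase, ranged over 11.03 to 11.86 at 3 h (median 11.42) against 9.20 and 9.44 in naive cells. *Pes1*, a subunit of the PeBoW complex that matures the large ribosomal subunit, changed by 2.08 ± 0.20. *Noc3l* and *Rrp9*, both nucleolar assembly factors, changed by 2.04 ± 0.18 and 2.00 ± 0.20, and *Ncl*, nucleolin, by 1.54 ± 0.19. The member that fell was *Ubtf*, a factor of rRNA transcription, by 1.01 on the log2 scale, at 10.33 to 10.62 at 3 h against 11.37 and 11.46 in naive cells. This call rests on the limit, since the change was under 2-fold without the naive array of experiment 1 (-0.90), without the 3 h arrays of experiment 2 (-0.92), without the Th1 cultures (-0.99), and without the Th1/2 cultures (-0.996), and was -0.47 as the mean of its probes. By contrast in values, none of 54 tested genes of cytosolic ribosomal proteins was called (1 was called higher without the naive array of experiment 1), and their median change was -0.05. Of the 38 start-site windows of the higher members, 12 (31.6%) held an E-box, against 9.22% of the windows of all tested genes. The NF-κB motif stood in 4 of them (10.5%), against 2.10%. Windows of members not called were not counted, so these shares cannot be tied to the rise.

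Genes that feed protein synthesis rose too, in smaller numbers. Of 21 aminoacyl-tRNA synthetase genes 7 were higher, with a median change of 0.77, and *Aimp2*, a scaffold of the synthetase complex, changed by 1.40 ± 0.23. *Iars*, the isoleucyl-tRNA synthetase, changed by 1.71 ± 0.23 with its brightest probe and by 0.98 with the mean of all its probes, which is under the 2-fold limit. Of 44 translation factors 6 were higher, among them *Eef1e1* at 1.85 ± 0.13. In the ATF4 response and serine and one-carbon metabolism, 9 of 21 genes were higher, with a median of 1.24 in experiment 1 and 0.39 in experiment 2. *Shmt1*, the cytosolic serine hydroxymethyltransferase, ranged over 10.73 to 11.89 at 3 h (median 11.51) against 8.13 and 7.86 in naive cells. *Asns*, asparagine synthetase, stood at 10.60 to 10.71 at 3 h in experiment 1 and at 9.03 to 9.54 in experiment 2, against 7.26 and 7.51 in naive cells. All arrays at 3 h were above the naive arrays, but the change was 3.42 in experiment 1 and 1.73 in experiment 2.

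Transport and small-molecule synthesis showed increases of single genes. Of 16 transporter genes 5 were higher, among them *Slc29a1*, a nucleoside transporter, at 1.95 ± 0.20, *Slc5a6*, a vitamin transporter, at 1.76 ± 0.20, and *Slc38a1*, a glutamine transporter, at 1.747 ± 0.180. *Odc1*, ornithine decarboxylase at the entry to polyamine synthesis, ranged over 13.35 to 13.74 at 3 h (median 13.49) against 10.55 and 11.97 in naive cells, and *Srm*, spermidine synthase, changed by 2.07 ± 0.26. The CTP synthase gene *Ctps* changed by 1.94 ± 0.19, whereas *Prps2*, which makes the precursor of nucleotides, fell by 1.65 on the log2 scale. In cholesterol synthesis and uptake 4 of 18 genes were higher, among them *Cyp51* at 2.03 ± 0.23 and *Hsd17b7* at 1.59 ± 0.16, and 1 was lower, the cholesterol exporter gene *Abcg1* at -1.24 ± 0.34. *Abcg1* was not called without the naive array of experiment 2 (-0.62, adjusted p = 0.144) or without the 3 h arrays of experiment 1 (-1.201, adjusted p = 0.0651). Without the naive array of experiment 1 the list had 3 higher and 2 lower genes, and without that of experiment 2 it had 5 higher and none lower. Of 16 glycolysis genes 1 was higher and 2 lower, with a median of -0.24. *Gapdh* lay between 12.55 and 12.94 at 3 h and at 12.70 and 12.73 in naive cells, and *Actb* between 15.11 and 15.34 at 3 h and at 15.42 and 15.21 in naive cells. Of 63 respiratory chain genes 1 was lower and none higher, whereas 1 was higher and none lower without the naive array of experiment 1.

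With both naive arrays, the lists of DNA replication and mitosis held no larger share of called genes than all genes tested. The list of G1 genes held a larger share in both directions. Of 34 genes of DNA replication 1 was lower (with 2 higher besides without the naive array of experiment 2), of 25 genes of mitosis 1 was lower, and of 28 genes of G1 cyclins, kinases, and inhibitors 3 were higher and 3 lower. *Ccnd2*, cyclin D2, changed by 1.36 ± 0.27 and *Cdkn1a*, the inhibitor p21, by 2.65 ± 0.29. *E2f2*, a factor that represses cell cycle entry in T cells, fell to 8.34 to 9.16 at 3 h (median 8.95), against 11.18 and 10.62 in naive cells, and *Cdkn2d*, the inhibitor p19, fell by 1.77 on the log2 scale.

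Among the BCL2 family 4 of 17 genes were higher and 2 lower, and the number lower was 3 without the naive array of experiment 1 and 1 without that of experiment 2. The A1 genes *Bcl2a1d*, *Bcl2a1b*, and *Bcl2a1c*, which oppose cell death, changed by 3.29 ± 0.18, 3.15 ± 0.15, and 2.72 ± 0.16; they are near-identical copies, and a probe may read more than 1 of them. *Bbc3*, which encodes the death-promoting protein PUMA, ranged over 9.36 to 10.50 at 3 h (median 10.02) against 12.02 and 12.07 in naive cells. Its groups did not overlap, and the change was -2.13 ± 0.21 (adjusted p = 8.66e-06).

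Genes of the naive and resting state made up the clearest group to fall. Of 40 tested members 15 were lower and 1 higher, with a median change of -0.67 (-0.90 in experiment 1 and -0.63 in experiment 2). *Igfbp4*, an IGF-binding protein found in naive T cells, ranged over 10.45 to 11.64 at 3 h (median 11.05) against 13.91 and 13.52 in naive cells. No array at 3 h reached a naive level, and the change was -2.63 ± 0.26 (adjusted p = 9.56e-06). *Ddit4*, an inhibitor of mTORC1 also known as REDD1, ranged over 9.58 to 10.15 at 3 h (median 9.91) against 13.39 and 11.60 in naive cells, so that the naive arrays were further apart than all activated arrays. *Dapl1*, whose start site was shown above, ranged over 7.73 to 8.62 at 3 h (median 8.17) against 10.30 and 10.54 in naive cells. *Pik3ip1*, a negative regulator of PI3 kinase, fell by 1.93 on the log2 scale, and *Rasgrp2*, an exchange factor for RAP1, by 1.92. *Klf2*, the factor that keeps naive cells circulating, lay between 12.57 and 13.27 at 3 h against 13.80 and 14.90 in naive cells, and its change of -1.46 ± 0.26 was -0.92 and no longer called without the naive array of experiment 2. *Txnip*, a brake on glucose uptake, changed by -1.47 ± 0.43, which was not called without the naive array of experiment 2 (-1.36, adjusted p = 0.0841) or without the 3 h arrays of experiment 1 (-0.87, adjusted p = 0.214). *Il7r*, *Foxo1*, and *Ccr7*, further hallmarks of naive cells, had changes of -0.77, -0.91, and -0.46 and were not called. The member that rose was *Tob2*, an antiproliferative gene, by 1.35 ± 0.17, or 0.48 as the mean of its probes.

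The largest decrease was that of *Slc40a1*, the iron exporter ferroportin, which ranged over 7.20 to 7.41 at 3 h (median 7.35) against 10.46 and 11.68 in naive cells, a change of -3.75 ± 0.26 (adjusted p = 7.78e-07). *Vcam1*, an adhesion molecule, followed with 8.199 to 8.857 at 3 h (median 8.48) against 10.74 and 11.85 in naive cells. For both genes the change was larger in experiment 2, by -4.35 and -3.12, than in experiment 1, by -3.15 and -2.43, while 550 of the 672 lower genes changed more in experiment 1. Both are known from macrophages as well as other cells, and so are *C1qc* and *C1qb* of the complement system, the mannose receptor gene *Mrc1*, and the lectin gene *Fcna*. *C1qc* fell to 7.23 to 7.40 at 3 h (median 7.31), against 8.74 and 9.47 in naive cells. *Mrc1* fell to 7.18 to 7.51 at 3 h (median 7.35), against 8.44 and 9.66 in naive cells, *C1qb* fell by 1.70 on the log2 scale, and *Fcna* by 2.11. Of the 10 myeloid markers 3 had changes above 0, the highest at 0.09. None of 5 tested markers of MHC class II antigen presenting cells was called, with a median change of 0.01. The myeloid marker genes *Csf1r*, *Adgre1*, and *Cst3* fell by 1.17, 1.18, and 1.10, and the summed level of the list was lower at 3 h and highest in naive cells of experiment 2, as given above. Without that array none of the 10 myeloid markers was called, their median change was -0.48, and *Csf1r*, *Adgre1*, and *Cst3* had changes of -0.62, -0.54, and -0.91, while *Mrc1* had one of -1.10. The part of such cells in these decreases was not tested.

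Other genes among the 15 largest decreases have roles in T cells themselves or in metabolism. *Dtx1*, a Notch-pathway ubiquitin ligase, ranged over 8.22 to 9.56 at 3 h (median 8.91) against 11.69 and 11.59 in naive cells, a change of -2.72 ± 0.25. *Itgb7*, the β7 integrin of gut homing, ranged over 10.39 to 11.67 at 3 h (median 11.07) against 13.48 and 13.48 in naive cells. *Ampd1* and *Ampd3*, both AMP deaminases, fell by 2.62 and 2.36 on the log2 scale. *Sema4a*, a semaphorin, fell to 9.94 to 10.80 at 3 h (median 10.18), against 12.83 and 12.62 in naive cells. In contrast to *Slc40a1*, all 5 genes changed more in experiment 1, whereas *H1f2*, given below, changed more in experiment 2 (-3.22 against -1.57). The remaining ones were *Slc16a5*, of the monocarboxylate transporter family, at -2.57 ± 0.17, *Scg5* at -2.27 ± 0.19, *BC147527* at -2.23 ± 0.42, *Rassf2*, of the RAS-association family, at -2.23 ± 0.14, and the linker histone gene *H1f2* at -2.40 ± 0.55. *H1f2* was not called without the naive array of experiment 2 (-1.50, adjusted p = 0.0554).

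The shared response was wider than the difference between cultures. At 3 h 133 genes, 0.963% of those tested, differed between the 4 cultures by limma's F-test with at least a 2-fold range of culture means, and 44 of them were among the 624 higher genes, 3 among the 672 lower genes, and 86 in neither group. In 78 of the 133 genes both cultures with IL-4, Th2 and Th1/2, had higher means than both without it, and in 34 lower means. These counts rest on the order of the means alone, and the share with this order over all tested genes was not counted. The 78 include *Gbp2* and *Gbp2b*, although the *Gbp2* means of Th1 and Th2 cells were close, at 13.07 and 13.18. Both cultures with IL-12, Th1 and Th1/2, had higher means than both without it for 17 genes. Both cultures without IL-12 received anti-IL-12 and anti-IFN-γ, so IL-12 and these blocks cannot be told apart. Th1/2 cells had the highest mean for 63 genes, Th2 cells for 36, Th0 cells for 18, and Th1 cells for 16.

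*Tbx21* had the widest range of culture means, 3.27 (adjusted p = 5.8e-09). In experiments 1 and 2, Th0 cells had 8.44 and 8.34, Th1 cells 9.96 and 10.78, Th2 cells 9.87 and 10.29, and Th1/2 cells 11.51 and 11.82, against 6.88 and 7.11 in naive cells. Every culture was above the naive cells, the Th2 cells without IL-12 were above the Th0 cells in both experiments, and the Th1/2 cells with both cytokines were highest. The interferon-inducible GTPase genes *Gm12250*, *Gbp2b*, and *Gbp2* had the same order of Th0 cells lowest and Th1/2 cells highest, with ranges of 2.91, 2.50, and 2.49. *Gbp2* stood at 11.62 and 11.61 in Th0 cells, below both naive arrays at 12.57 and 12.13, and at 14.18 and 14.03 in Th1/2 cells. None of these 3 GTPase genes was called higher over the 4 cultures. *Ifng* and *Irf8* had ranges of 1.70 and 2.09, again with Th0 cells lowest and Th1/2 cells highest.

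A second pattern set the cultures with IL-4 apart from those without. Both cultures without IL-4 received anti-IL-4, so the cytokine and the block cannot be told apart. *Prnp*, the prion protein gene, stood at 13.46 and 13.86 in Th2 cells and 13.56 and 13.66 in Th1/2 cells, and at 11.21 and 11.06 in Th0 cells and 10.87 and 10.91 in Th1 cells, against 8.88 and 9.10 in naive cells. It therefore rose in every culture and stood higher in both cultures with IL-4, with a range of 2.77 (F-test adjusted p = 6.6e-14). *Inhba*, a subunit of activin, *Rragd*, a RAG GTPase of mTORC1 signalling, and *Myo6*, an unconventional myosin, had ranges of 2.45, 2.43, and 2.39 in the same direction. *Atf3*, *Il4i1*, *Cish*, and *Socs1*, which were called higher over the 4 cultures, were also higher in both cultures with IL-4, with ranges of 2.32, 2.15, 1.27, and 1.09. *Gata3* stood at 12.13 and 12.19 in Th2 cells and 12.32 and 12.09 in Th1/2 cells, and at 10.98 and 11.15 in Th0 cells and 10.81 and 10.97 in Th1 cells, against 10.73 and 11.61 in naive cells. The reverse was found for *Bcl6*, at 11.11 and 10.92 in Th2 cells and 10.39 and 10.45 in Th1/2 cells, and at 12.73 and 12.74 in Th0 cells and 12.83 and 12.75 in Th1 cells, against 10.22 and 9.93 in naive cells. *Xcl1* and *Cdkn1a* were likewise lower in both cultures with IL-4, with ranges of 1.43 and 1.22.

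**Figure D5:**
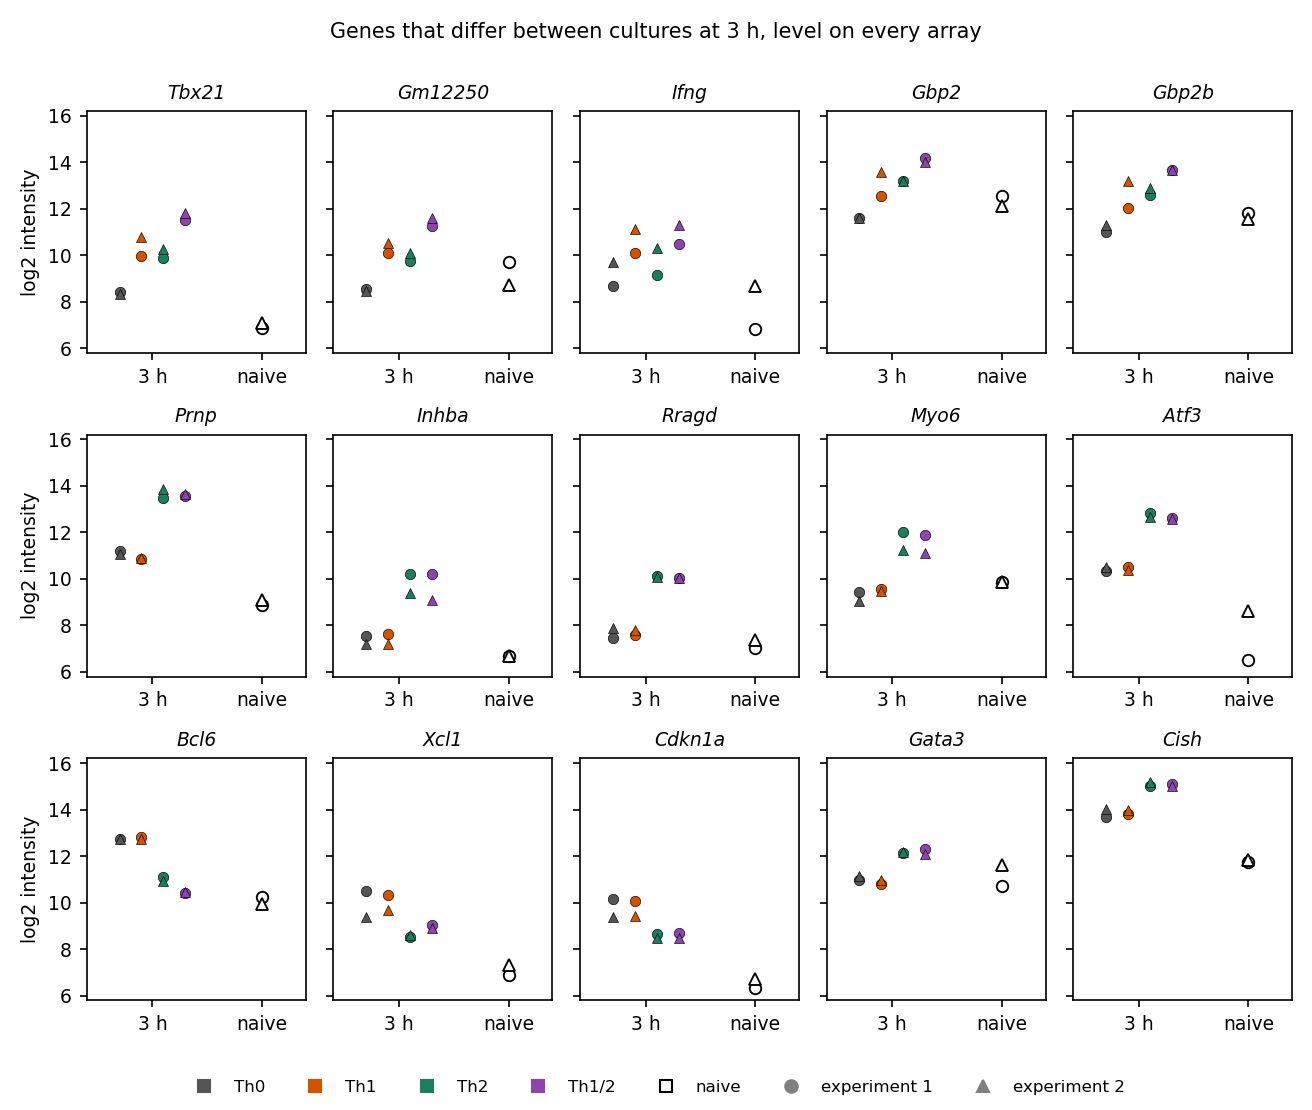
Log2 intensity of genes that differ between the 4 cultures at 3 h, on every array, with Th0, Th1, Th2, and Th1/2 cells from left to right and naive cells (open) at the right edge, circles for experiment 1 and triangles for experiment 2. *Tbx21* is highest in Th1/2 cells (11.51 and 11.82), *Prnp* is higher and *Bcl6* lower in both cultures with IL-4.

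At 3 h many of these genes were at their extreme within the 120 h that followed. Of the 624 higher genes 234 (37.5%) had their highest mean over both experiments and all cultures at 3 h, and 211 (33.8%) at 6 h. Of the 672 lower genes 120 (17.9%) had their lowest mean at 3 h and 243 (36.2%) at 6 h. The 3 h values themselves chose the genes, so these shares are a description. *Nr4a2* averaged 7.23 in naive cells and 12.92 at 3 h, then 10.75 at 6 h, and by 73 h its mean was 7.21. For *Fosl2* the mean was 13.75 at 3 h and 11.84 at 6 h, with 9.07 measured at 24 h. *Il2* had a mean of 13.23 at 3 h and 14.62 at 6 h, reached its highest mean of 15.41 at 35 h, and had 7.55 at 73 h. At 120 h *Slc40a1* and *Vcam1* averaged 6.36 and 6.49, below their levels at 3 h. *Igfbp4* and *Itgb7* were lowest at 12 h, at 9.55 and 9.80, and averaged 12.73 and 12.14 at 120 h.

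The 2-fold limit cuts through a continuous range of changes. The closest genes inside it were *Lrig1*, *Nptn*, and *Plk4* among the higher genes, at 2.003-fold, 2.004-fold, and 2.004-fold, and *Zkscan14*, *H2bc14*, and *Hcst* among the lower genes, each at 2.001-fold. The closest outside it were *Nudt4*, *Acer3*, and *Gar1*, higher by 1.999-fold, 1.998-fold, and 1.997-fold, and *Dhcr7*, *Tmem134*, and *Uap1l1*, each lower by 1.999-fold. All 6 genes inside it lose the call under several of the alternatives tried, and all 6 outside it had an adjusted p under 0.05.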

How the data were processed

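Gene expression of 74 samples was measured with Mouse Sentrix-6 bead arrays of Illumina. The values are linear probe intensities deposited by the authors, which per the paper's methods had been background-corrected and quantile-normalized, with software not given in the sources used here. No depth exists for arrays, and the number of arrays limits the precision. Array medians lay between 106.7 and 111.1, so log2 was taken of the deposited intensities with no further normalization. Of 45135 probes 34773 carry 1 gene symbol in the platform annotation, 18 several, and 10344 none. A probe was kept if the mean of any condition exceeded 6.77, the log2 of the overall median, which left 23115 probes for 13817 genes, and each gene was represented by its brightest probe. Of 717 called genes with several probes, all probes moved the same way in 624.

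The analysis used limma 3.58.1 under R 4.3.3. The arrays of the 4 cultures were averaged within experiment and time point, which gave 20 values over 10 times, and these were fitted with time and experiment as a block (9 residual degrees of freedom). A naive value is 1 array and a 3 h value a mean of 4. The model pools the spread over all 20 values, most of them means of 4 arrays. SEs and p values may therefore be too small for a contrast with single naive arrays. The experiment is the replicate (n = 2); the labels number the samples and the study describes the experiments as independent. The numbers pair the samples: deviations from group means correlated by 0.546 to 0.676 between cultures at 3 h of 1 experiment and by 0.310 to 0.387 between these and the naive arrays. Differences between cultures were tested by limma's F-test on the 72 arrays after 0 h with experiment-by-time blocks. The steps were tested on simulated data. Alternatives changed the block, normalization, centring, probe choice, filters, limits, and the samples used. Where a naive array or the 3 h arrays of 1 experiment were left out, both experiments stayed in at the other time. Such changes are therefore not paired by experiment, and the same sign was asked only of the 4 differences of the experiment kept whole.

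Members, 32 gene lists, 9 marker lists, and tests were chosen with earlier results of these data known. Genes named were the 15 largest increases and decreases, a list of anchor genes of T-cell activation, up to 4 members of each list with the largest change, the 8 widest ranges between cultures, the 5 largest differences between experiments, and 3 genes on each side of each 2-fold limit. *Adgre1*, *Csf1r*, *Cst3*, *Klrd1*, *Dnajb9*, *Ppp1r15a*, *Hspa1a*, *Egr1*, *Egr4*, *Nab2*, *Lta*, *Fasl*, *Tnfsf14*, *Lif*, *Il16*, *Tnfsf10*, *Tnfrsf4*, *Tnfrsf9*, *Rela*, *Ikbke*, *Dusp7*, *Dusp16*, *Spred1*, *Stat5a*, *Sh2d2a*, *Themis*, *Ubtf*, *Rasgrp2*, *Tob2*, *C1qb*, *C1qc*, *Mrc1*, and *Fcna*, and the genes shown only in plots, were picked after their values were seen. Start-site windows are those of RefSeq, 32851 windows of 27025 genes in GRCm38.p6.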

Additional observations from a re-analysis of the deposited data

Results flagged for a closer look

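Several results at 3 h differed between the cultures. By limma's F-test 133 genes differed between Th0, Th1, Th2, and Th1/2 cells. The widest ranges between culture means were 3.27 for *Tbx21*, 2.91 for *Gm12250*, 2.77 for *Prnp*, 2.50 for *Gbp2b*, 2.49 for *Gbp2*, 2.45 for *Inhba*, 2.43 for *Rragd*, and 2.39 for *Myo6*. Of these, *Gm12250*, *Gbp2b*, *Gbp2*, and *Myo6* were not called over the 4 cultures together, and *Tbx21*, *Prnp*, *Inhba*, and *Rragd* were called higher. Among the 5884 expressed probes that carry no single gene symbol and entered no comparison above, 121 were higher and 127 lower at 3 h than in naive cells under the same rule.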

How the results depend on the processing

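Outside the fold limit, counts of called genes stayed within 1.5 times of the main counts under all alternatives run. With a 1.5-fold limit 1298 genes were higher, 1773 lower, and 453 different between cultures, and with no fold limit 2091 were higher and 2900 lower. Leaving out 1 naive array or the 3 h arrays of 1 experiment gave 531 to 703 higher and 562 to 799 lower genes. Leaving out 1 array at 3 h gave 125 to 145 genes that differed between cultures. The experiment number as a replicate block changed little: without the block 620 genes were higher, 669 lower, and 111 different between cultures. With all 74 arrays and a random experiment-by-time block, 629 were higher and 676 lower. The mean of all probes of a gene gave 474 higher and 452 lower genes, of which 461 and 443 were called with the brightest probe, and centring the arrays on their medians gave 697 and 552. Of 134 called genes named in the text, 113 kept the call under all 20 alternatives per gene. Signs turned in 10 genes, none of them called. With 1 naive array or the 3 h arrays of 1 experiment left out, the change ranged over -1.05 to 3.17 for *Tnfaip3*, -0.30 to 3.19 for *Fosb*, -0.94 to 1.42 for *Fos*, -0.74 to 1.78 for *Junb*, -1.72 to 1.495 for *Dnajb9*, -2.69 to 1.055 for *Hspa1a*, -1.67 to 0.96 for *Ppp1r15a*, -0.99 to 0.070 for *Ccr7*, -0.29 to 0.059 for *Actb*, and -0.016 to 0.12 for *Gapdh*. *Gapdh* also turned without the Th0 cultures (-0.001593) and *Actb* with the mean of all probes (0.59). The cause was not tested. With 2 experiments, and single naive arrays that differ, small changes cannot be resolved.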
